A study of Mus musculus with 12 samples.

Results

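The late neutrophil granule genes studied here were Ltf, Camp, Ngp, Lcn2, Mmp8, Mmp9, S100a8 and S100a9, 8 genes that neutrophils transcribe late in their maturation. Their regions were chosen by position: every accessible region of the count table that overlapped a gene body extended by 20 kb on each side (GRCm38, gene records and transcript start sites of GENCODE M21 basic). This gave 57 of the 121336 regions in the table, with 8 for Ltf, 5 for Camp, 7 for Ngp, 8 for Mmp8, 14 for Mmp9, 10 for S100a8 and 8 for S100a9. The windows of S100a8 and S100a9 share 3 of these regions, and Lcn2 was not analysed here. A member gene had the nearest start site for 34 regions, and another gene did for the other 23. Regions are named below by gene and by the distance of their centre from the most upstream start site, negative when upstream, and "start" denotes the region covering that site.

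Chromatin accessibility was measured by OmniATAC-seq, which reads where a transposase can cut the genome. LSKs (Lin- Sca-1+ c-Kit+, a population enriched for stem and multipotent progenitors) and GMPs (granulocyte-monocyte progenitors, Lin- Sca-1- c-Kit+ CD16/32+) were sorted from the bone marrow of WT mice and of UREd/d mice. In UREd/d mice both copies of Spi1, which encodes PU.1, lack their upstream regulatory element (URE), and the mice were sampled in the preleukemic state. The mice had a C57BL/6 background and were 8 to 12 weeks old, the controls were littermates, and no other allele or treatment was given. Each combination of genotype (WT or URE) and cell type (LSK or GMP) had 3 libraries, which makes 4 groups, written as WT-LSK, for example. By the study's methods, the 3 libraries of a group came from 3 mice, and whether LSKs and GMPs were taken from one and the same mouse is not given. The marrow was enriched for c-Kit before sorting, and the lineage antibodies included Gr1, which removes maturing neutrophils. The GMP gate used CD16/32 without CD34. The deletion was germline, so GMPs and all cells they came from carried it. The comparisons ask whether the late genes are already accessible in progenitors, and how accessibility differs with the deletion.

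Neutrophils fill their granules in order. Peroxidase and the serine proteases of the primary granules are made by promyelocytes, proteins of the specific granules (lactoferrin, cathelicidin, NGP and collagenase) by the myelocytes that follow, and gelatinase later still. C/EBP factors, above all C/EBPε at the myelocyte stage, drive the specific granule genes. PU.1 is an ETS factor that myeloid cells need, and it binds purine-rich sites around a GGAA core. S100a8 and S100a9 encode the subunits of calprotectin, the calcium- and zinc-binding protein that fills the neutrophil cytosol.

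The sequences just upstream of 6 start sites are printed first to show which motifs they hold. Mmp8 and S100a8, the start regions called lower in URE-LSK, have a PU.1 motif there and the other 4 stretches do not. Ltf start, without that motif, had a log2 fold change of -0.98 in URE-LSK (edgeR adjusted p = 2.74e-04), just short of a call. The part of the motif was not tested. Each stretch ends at the base before the most upstream start site, was read from the GRCm38 genome, and is given 5′ to 3′ on the strand of the gene. Capitals mark the PU.1 motif GAGGAAGT and the C/EBP motif TTGCNNAA, each searched on both strands. Camp (minus strand) was read at chr9:109849618-109849867, Ngp (plus) at chr9:110419497-110419746 and S100a9 (minus) at chr3:90695722-90695971. S100a8 (plus) was read at chr3:90668728-90668977, Mmp8 (plus) at chr9:7558206-7558455 and Ltf (plus) at chr9:111019021-111019270.
Camp: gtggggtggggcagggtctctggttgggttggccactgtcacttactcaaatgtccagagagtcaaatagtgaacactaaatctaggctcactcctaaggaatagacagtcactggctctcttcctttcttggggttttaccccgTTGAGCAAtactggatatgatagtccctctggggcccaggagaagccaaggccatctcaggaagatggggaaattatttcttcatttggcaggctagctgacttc
Ngp: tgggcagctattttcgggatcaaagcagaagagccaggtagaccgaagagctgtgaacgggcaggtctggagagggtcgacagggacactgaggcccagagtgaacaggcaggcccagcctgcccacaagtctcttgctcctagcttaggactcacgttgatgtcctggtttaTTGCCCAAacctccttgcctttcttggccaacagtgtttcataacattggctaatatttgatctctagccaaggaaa
S100a9: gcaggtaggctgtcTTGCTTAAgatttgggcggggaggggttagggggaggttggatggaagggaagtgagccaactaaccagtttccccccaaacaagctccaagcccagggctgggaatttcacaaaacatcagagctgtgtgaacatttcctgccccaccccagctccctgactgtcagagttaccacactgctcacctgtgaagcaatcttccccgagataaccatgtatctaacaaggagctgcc
S100a8: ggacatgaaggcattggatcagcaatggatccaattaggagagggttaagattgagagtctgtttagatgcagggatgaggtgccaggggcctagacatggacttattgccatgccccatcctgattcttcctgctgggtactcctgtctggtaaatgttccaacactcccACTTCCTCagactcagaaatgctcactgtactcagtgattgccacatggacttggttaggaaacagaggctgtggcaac
Mmp8: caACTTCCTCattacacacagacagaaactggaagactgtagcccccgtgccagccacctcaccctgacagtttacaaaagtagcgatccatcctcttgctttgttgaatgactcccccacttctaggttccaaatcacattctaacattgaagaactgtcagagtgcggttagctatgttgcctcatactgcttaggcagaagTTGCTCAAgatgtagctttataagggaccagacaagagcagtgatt
Ltf: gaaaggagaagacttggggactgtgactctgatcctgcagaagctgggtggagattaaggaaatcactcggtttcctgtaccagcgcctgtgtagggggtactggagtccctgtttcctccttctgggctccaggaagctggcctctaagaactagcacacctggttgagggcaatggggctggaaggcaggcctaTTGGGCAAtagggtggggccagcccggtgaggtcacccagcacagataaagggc
The C/EBP motif began at base -105 of Camp, -77 of Ngp, -236 of S100a9, -46 of Mmp8 and -54 of Ltf, counted from the start site. The PU.1 motif began at -79 of S100a8 and at -248 of Mmp8, so that Mmp8 holds both, S100a8 only the PU.1 motif and the others only the C/EBP motif. Over whole regions, the C/EBP motif was found in 19 of the 57 (33.3%) and in 20.5% of all regions in the table, and the PU.1 motif in 7 of the 57 (12.3%) and in 10.5% of all. Among the regions at promoters in the whole table these shares were 20.6% and 8.2%. A match is a run of letters and not a measured binding site.

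Libraries held 23072701 to 62204826 counts in regions, so that 3 counts, the upper limit that a count of 0 allows, equalled 0.052 to 0.126 CPM (the count scaled to the TMM-adjusted library total). Such limits cover counting error only. Fold changes came from edgeR's quasi-likelihood test on all 121336 regions, and a region was called changed when its absolute log2 fold change was above 1 at an adjusted p under 0.05. The 5 regions 12 to 17 kb upstream of Spi1, where the deleted element lies, summed to 51.8 to 59.0 CPM in WT-LSK and 71.3 to 86.9 in WT-GMP. In the libraries of UREd/d mice they summed to 4.17 to 7.16 CPM, so every library matched its genotype label. Start regions of the LSK list (6 of 7 genes had one, Kit and Meis1 among them) summed to 327 to 335 CPM in WT-LSK, to 345 to 386 in URE-LSK, above every WT-LSK library, and to 269 to 308 in GMPs. Start regions of the GMP list (6 of 7 genes, Mpo and Elane among them) summed to 42.7 to 49.3 CPM in WT-LSK and 205 to 250 in WT-GMP. They summed to 320 to 343 in URE-GMP, above every WT-GMP library, and to 42.7, 37.9 and 71.2 in URE-LSK replicates 1, 2 and 3, so that replicate 3 stood above the other LSKs. From WT-GMP to URE-GMP, the mean went up at Ctsg (48.4 to 105 CPM), Mpo (107 to 145), Elane (13.9 to 23.9) and Csf3r (24.9 to 32.8). It went down at Prtn3 (15.9 to 14.0) and at the Ms4a3 regions (14.2 to 10.1 and 2.70 to 1.63). A list of mature neutrophil genes (5 of 8 with a start region) reached 18.0 to 21.6 CPM in WT-LSK, 9.92 to 12.7 in URE-LSK, 38.4 to 47.0 in WT-GMP and 43.3 to 47.4 in URE-GMP, with no start region in the table for Ly6g, Retnlg and Fpr1. Lists for erythroid and megakaryocyte cells (2 of 5 genes) and for basophils and mast cells (3 of 4) summed to 64.5 to 66.4 and 74.5 to 81.7 CPM in URE-LSK, above the 42.0 to 58.2 and 51.0 to 62.6 of WT-LSK, and their part in the results was not tested.

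In WT-LSK, the start regions of Ngp, S100a9, Camp, S100a8 and Mmp8 had low signal among promoter regions, and those of Ltf and Mmp9 had more. Ranked by mean CPM per kb among 19118 promoter regions, the start regions stood at the 0.4th percentile for Ngp, the 0.7th for S100a9, the 1.4th for Camp, the 6.5th for S100a8 and the 8.5th for Mmp8. Ltf stood at the 31.6th and Mmp9 at the 55.1st. In WT-GMP the order was Mmp8 at the 70.6th, S100a8 at the 48.7th, Camp at the 34.3rd, Mmp9 at the 21.1st, Ltf and Ngp both at the 9.9th and S100a9 at the 9.2nd. In these bulk samples, fewer cells with an open region and less signal per cell cannot be told apart. The median promoter region had 24.0 CPM per kb in WT-LSK and 24.6 in WT-GMP.

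**Figure D1:**
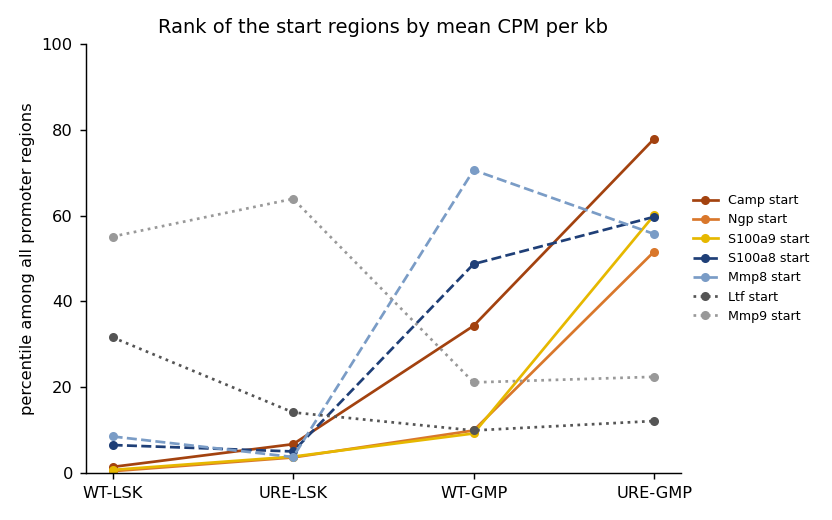
Percentile of each start region among all 19118 promoter regions by mean CPM per kb (vertical axis), in the 4 groups (horizontal axis, 3 libraries a group), with lines joining the values of 1 gene. Camp rose from 1.4 in WT-LSK to 77.9 in URE-GMP, while Mmp9 went from 55.1 to 22.4 and Ltf from 31.6 to 12.1.

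From LSK to GMP in WT mice, 24 of the 57 regions were called, 22 of them higher and 2 lower (42.1%, against 37.8% of all regions). Across the table, 21% of regions were higher and 16.8% lower. Of the 34 regions nearest a member's start site, 19 were higher and 2 lower, and of the 23 nearest another gene, 3 were higher and none was lower, by the same edgeR test. All 7 start regions were called, 5 higher and 2 lower, where 13.5% of all promoter regions were called.

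Camp, the cathelicidin antimicrobial peptide of specific granules, had with Ngp the largest fold change among the 57 regions. Its start region (chr9:109849330-109849882, covering the start site and a coding exon) had 0.499, 0.571 and 0.442 CPM in WT-LSK replicates 1, 2 and 3 and 9.16, 10.5 and 5.35 in WT-GMP. The lowest GMP library was above every LSK library. The log2 fold change was 4.07 ± 0.30 (SE derived from the test's F statistic, n = 3 per group, edgeR adjusted p = 1.06e-07), or 16.7-fold.

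Ngp, a cystatin-like protein of the same granules, changed as much from a lower base. Its start region (chr9:110419530-110419939) had 0.210, 0.0408 and 0.121 CPM in WT-LSK, which is 8, 1 and 6 counts, and 2.43, 3.29 and 1.11 CPM in WT-GMP. The groups did not overlap, and the log2 fold change was 4.07 ± 0.45 (edgeR adjusted p = 2.39e-06). At 1 to 8 counts in the LSK libraries, the size of this fold change rests on few reads. S100a9 had 0.289, 0.122 and 0.201 CPM in WT-LSK and 2.43, 3.76 and 0.715 in WT-GMP over its start region (chr3:90695627-90696060), with a log2 fold change of 3.42 ± 0.52 (edgeR adjusted p = 4.75e-05).

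WT-GMP replicate 3 was the lowest WT-GMP library at Camp, Ngp, S100a9 and S100a8, and it also had the lowest sum over the GMP marker list (205 CPM, against 224 and 250). Its part in the spread was not tested.

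Mmp8, the neutrophil collagenase, and S100a8 had more signal in WT-LSK than Camp, Ngp and S100a9 did. The Mmp8 start region (chr9:7558115-7558563) had 3.02, 2.69 and 2.33 CPM in WT-LSK and 16.5, 18.6 and 17.2 in WT-GMP (log2 fold change 2.71 ± 0.21, edgeR adjusted p = 1.22e-07). The S100a8 start region (chr3:90668763-90669405) had 2.26, 4.16 and 2.86 CPM in WT-LSK and 17, 18.6 and 9.91 in WT-GMP (2.31 ± 0.26, edgeR adjusted p = 2.65e-06). For both genes the lowest GMP library exceeded the highest LSK library.

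Ltf and Mmp9 went the other way. The Ltf start region (lactoferrin, an iron-binding protein; chr9:111018790-111019324) had 6.88, 8.0 and 8.28 CPM in WT-LSK and 2.59, 2.92 and 3.41 in WT-GMP, a log2 fold change of -1.37 ± 0.19 (edgeR adjusted p = 1.79e-05). The Mmp9 start region (gelatinase B; chr2:164947756-164948354) had 16.1, 15.8 and 16.6 CPM in WT-LSK and 4.98, 4.34 and 7.81 in WT-GMP (-1.50 ± 0.22, edgeR adjusted p = 3.72e-05). All GMP libraries were below all LSK libraries at both. Each of these regions holds a C/EBP motif, as do those of Camp and Ngp.

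**Figure D2:**
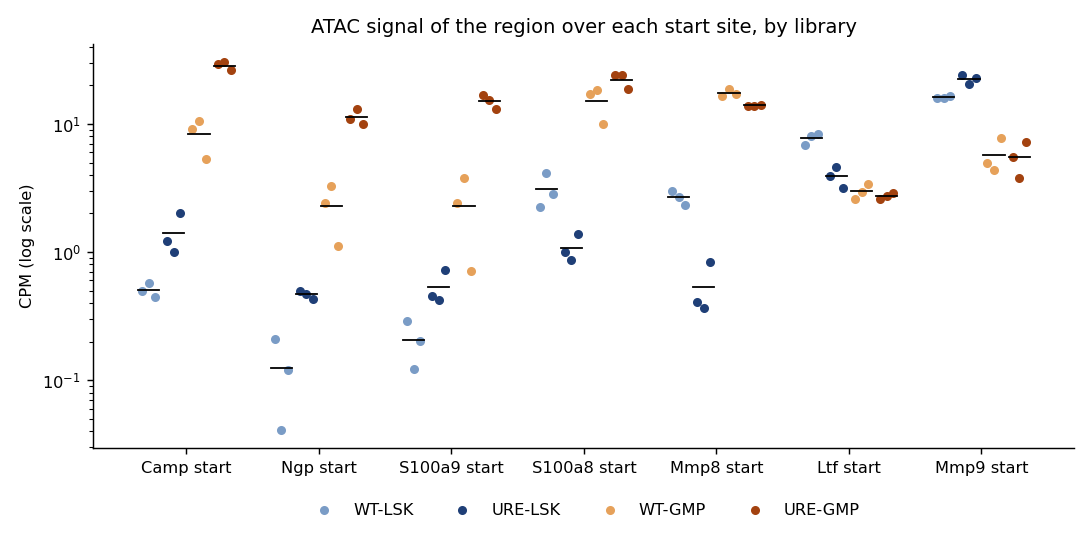
CPM (vertical axis, log scale) of the region covering the start site of each gene (horizontal axis) in every library. Points are libraries, coloured by group and drawn in the order of replicates 1 to 3, and black lines are the means of the 3 libraries. Camp, Ngp and S100a9 climb through the 4 groups, S100a8 and Mmp8 dip in URE-LSK, and Ltf and Mmp9 are lower in GMPs than in LSKs.

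Away from the start sites, S100a8 +18.0 kb lies between S100a8 and S100a9 (chr3:90686671-90687227, intergenic) and is in the windows of both. It had 0.472, 0.367 and 0.523 CPM in WT-LSK and 8.49, 7.22 and 4.63 in WT-GMP, a log2 fold change of 3.85 ± 0.26 (edgeR adjusted p = 6.61e-08). In the same step of UREd/d mice it rose from 0.238, 0.279 and 0.256 to 10.8, 13 and 9.79 CPM, a log2 fold change of 5.43 ± 0.28 (edgeR adjusted p = 2.18e-09). No WT-GMP or URE-GMP library overlapped the LSKs. The central stretch of this region (chr3:90686849-90687048, plus strand) is shown because it holds a pair of C/EBP motifs, in capitals, and no PU.1 motif.
S100a8 +18.0 kb: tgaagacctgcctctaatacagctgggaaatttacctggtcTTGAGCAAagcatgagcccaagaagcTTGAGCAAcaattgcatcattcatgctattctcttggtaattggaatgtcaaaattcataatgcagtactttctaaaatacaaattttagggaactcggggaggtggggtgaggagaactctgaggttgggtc
Across the whole table, the median log2 change of regions with the C/EBP motif was 0.42 in this step in WT mice, and among the 19 member regions that hold it, it was 2.45, with 11 called higher and 2 lower. Among the 38 without it, 11 were higher and none was lower, with a median of 0.30.

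The Mmp9 window held regions that moved in both directions. The region 12.1 kb upstream (chr2:164935931-164936358) went from 0.840, 1.14 and 0.905 CPM in WT-LSK to 5.73, 5.22 and 4.15 in WT-GMP (log2 fold change 2.40 ± 0.27, edgeR adjusted p = 2.95e-06). The region 1.2 kb upstream rose by 2.20 ± 0.40 (edgeR adjusted p = 2.12e-04), and the start region fell. Of its 14 regions, 11 were not called. The promoter of the neighbouring gene Nme6 in the Camp window (Camp +16.9 kb) had a mean of 31.6 CPM in WT-LSK and a log2 change of -0.02 ± 0.13.

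In UREd/d mice, 29 regions were called in the step from LSK to GMP, 26 higher and 3 lower (50.9%, against 49.1% of all regions). Across the table, 27.6% of regions were higher and 21.6% lower, and 19.7% of promoter regions were called, as were 6 of the 7 start regions. Of the 22 regions that rose in the WT step, 21 (all but Ltf -9.3 kb) were called higher in UREd/d mice too, and 86.1% of the 25450 regions that rose in WT mice across the table were. The start regions moved by 4.32 ± 0.27 for Camp, 4.59 ± 0.36 for Ngp, 4.80 ± 0.44 for S100a9, 4.34 ± 0.28 for S100a8 and 4.67 ± 0.24 for Mmp8 on the log2 scale, each with an edgeR adjusted p of 1.32e-07 or less. Mmp9 fell by 2.03 ± 0.22 (edgeR adjusted p = 7.61e-07). At Ltf the log2 change was -0.51 ± 0.19, short of the fold threshold.

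**Figure D3:**
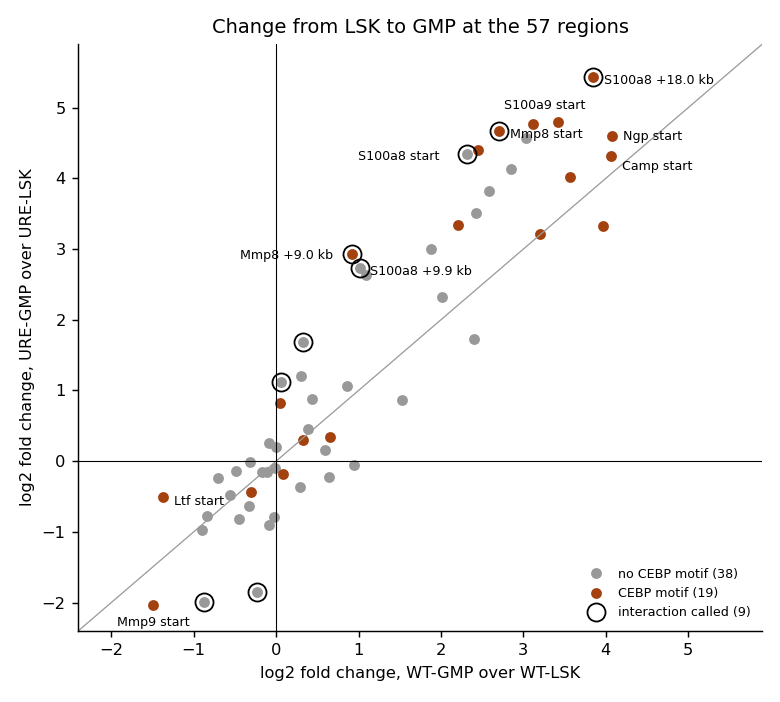
Log2 fold change from LSK to GMP in WT mice (horizontal axis) and in UREd/d mice (vertical axis) for the 57 regions, with the line of equal change. Brown points hold the C/EBP motif, and rings mark the 9 regions whose change differed between the genotypes in the interaction test; S100a8 start, Mmp8 start and S100a8 +18.0 kb lie above the line.

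Within LSKs, the start regions of Camp and Ngp were more open with the deletion and those of Mmp8 and S100a8 less. URE-LSK differed from WT-LSK at 19 of the 57 regions, 9 higher and 10 lower (33.3%, against 37.5% of all regions). Across the table, 13.6% of regions were higher and 23.9% lower, and 11.5% of promoter regions were called. With offsets fitted by loess against signal level the split was 13 higher and 8 lower, and over all called regions the share that was lower went from 63.8% to 46.1%. Among the 7 start regions, 2 were called higher and 2 lower. When edgeR tested against the fold threshold itself (glmTreat), Mmp8 was still called, and Camp (adjusted p = 0.0679), Ngp (adjusted p = 0.089) and S100a8 (adjusted p = 0.0623) were not.

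The Camp start region had 1.21, 1.0 and 2.03 CPM in URE-LSK replicates 1, 2 and 3, above the 0.442 to 0.571 CPM of WT-LSK. The log2 fold change was 1.53 ± 0.33 (edgeR adjusted p = 8.23e-04), and 1.17 without URE-LSK replicate 3, the library with more signal at GMP markers (edgeR adjusted p = 0.00683 over all regions). The Ngp start region had 0.50, 0.475 and 0.427 CPM in URE-LSK (17 to 21 counts), all above the highest WT-LSK library at 0.210, with a log2 fold change of 1.79 ± 0.53 (edgeR adjusted p = 0.00849, and 1.86 without replicate 3). In URE-LSK they stood at the 6.7th percentile of promoter regions for Camp and the 3.6th for Ngp.

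Elsewhere in the Ngp window the direction differed. Its smallest p in LSKs was at Ngp +20.8 kb (chr9:110440077-110440977, in an intron of the neighbouring gene Klhl18), with 18.0, 20.03 and 18.9 CPM in WT-LSK and 4.38, 5.39 and 6.30 in URE-LSK, a fall of 1.82 ± 0.17 on the log2 scale (edgeR adjusted p = 2.19e-07). In GMPs it had 15.9, 19.8 and 22.9 CPM in WT and 7.99, 10.2 and 10.2 with the deletion (-1.05 ± 0.16, edgeR adjusted p = 4.72e-05). The groups did not overlap in either cell type, but the GMP value was within the fold threshold with RLE factors and DESeq2 (-0.99 in each), with GC content offsets (-0.74) and without WT-GMP replicate 3 (-0.91) or URE-GMP replicate 1 (-0.94). The region with the most counts in the window, Ngp -11.6 kb, had a mean of 31.3 CPM in WT-LSK and was not called in any comparison, at 0.32 ± 0.09 in LSKs and 0.30 ± 0.09 in GMPs. The sum over the whole Ngp window had a log2 change of -0.31 ± 0.06 in LSKs (edgeR adjusted p = 5.03e-04), short of the fold threshold.

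S100a9 had 0.452, 0.419 and 0.726 CPM in URE-LSK, again without overlap with WT-LSK, but its log2 fold change of 1.33 ± 0.60 did not pass (edgeR adjusted p = 0.0668). It passed with loess offsets (1.84), GC content offsets (1.75) and in DESeq2 (1.40, adjusted p = 0.0176), and without WT-GMP replicate 2 or 3 (1.27 in each). The S100a9 region 6.7 kb upstream was called higher, at 1.81 ± 0.49 (edgeR adjusted p = 0.00482).

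Mmp8 and S100a8 fell in the same URE-LSK libraries. Mmp8 start had 0.404, 0.363 and 0.833 CPM, below the lowest WT-LSK library at 2.33, and its log2 fold change was -2.29 ± 0.24 (edgeR adjusted p = 9.67e-07). S100a8 start had 0.999, 0.865 and 1.39 CPM, below the lowest WT-LSK library at 2.26, with -1.47 ± 0.29 (edgeR adjusted p = 3.66e-04). Without URE-LSK replicate 3 the values were -2.79 and -1.70. Both regions were among the most open start regions in WT-GMP, at 17.5 and 15.2 CPM on average.

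Ltf start had 3.95, 4.63 and 3.18 CPM in URE-LSK, all below WT-LSK. Its log2 fold change was -0.98 ± 0.18 (edgeR adjusted p = 2.74e-04), just short of the fold threshold, and it passed without WT-LSK replicate 1 or 2, URE-LSK replicate 2 or any 1 of the WT-GMP libraries (-1.12 to -1.02). Mmp9 start had 24.1, 20.3 and 22.8 CPM in URE-LSK against 15.8 to 16.6 in WT-LSK, which did not pass (0.47 ± 0.21, edgeR adjusted p = 0.0689).

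Beyond the start sites, the strongest gain in LSKs was 16.9 kb upstream of Mmp9 (chr2:164930978-164931670, intergenic). It had 0.945, 1.10 and 1.39 CPM in WT-LSK and 15.5, 13.7 and 14.9 in URE-LSK, a 12.7-fold difference (log2 3.67 ± 0.24, edgeR adjusted p = 9.82e-09). The groups did not overlap, and the region held none of the 6 motifs searched (PU.1, C/EBP, the RUNX motif AACCACA, the ETS motif CCGGAAGT, the GATA factor motif AGATAA and the AP-1 motif TGANTCA). These last 4 were found in 17.5%, 1.8%, 14.0% and 17.5% of the 57 regions and in 17.3%, 1.9%, 15.7% and 15.1% of all regions. A weaker region inside Slc12a5, 27.6 kb downstream of the Mmp9 start, rose with it, from 0.604, 0.775 and 0.442 to 8.14, 5.50 and 7.05 CPM (3.55 ± 0.31, edgeR adjusted p = 1.30e-07). Both fell from URE-LSK to URE-GMP, by 2.0 ± 0.21 and 1.85 ± 0.27 on the log2 scale (edgeR adjusted p = 6.21e-07 and 1.62e-05).

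The losses in LSKs included 5 of the 7 regions with a PU.1 motif, and none of the 7 rose. They had a median log2 change of -1.14, close to the -1.13 of all regions with this motif in the table, so such losses were not particular to the members. In GMPs the median of the 7 was -0.08, against -0.91 for all regions with the motif, and 2 of the 7 were lower and none higher. Of all regions, with or without the motif, 23.9% were lower and 13.6% higher in LSKs, and 24.1% and 15.6% in GMPs. The share called among all regions with the motif is not given here. An example of the losses is Ltf -9.3 kb (chr9:111009840-111010092, intergenic), with 0.735, 1.51 and 0.382 CPM in WT-LSK and 0.143, 0.279 and 0.128 in URE-LSK (-2.20 ± 0.55, edgeR adjusted p = 0.00291). Its values were 2.09, 2.94 and 2.12 CPM for WT-GMP, and for URE-GMP 0.323, 0.486 and 0.145 (-2.86 ± 0.47, edgeR adjusted p = 7.76e-05). The groups did not overlap in either cell type.

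An exception was Ltf +27.1 kb (chr9:111046146-111046689, intergenic, with Ccrl2 as the gene of the nearest start site), the region with the most counts in the Ltf window. It had 28.3, 31.3 and 31.2 CPM in WT-LSK and 32.7, 27.9 and 30.1 in URE-LSK, with full overlap and a log2 change of 0.00 ± 0.13 (edgeR adjusted p = 0.999). Stretches of both regions, read on the plus strand at chr9:111009866-111010065 and chr9:111046317-111046516, are shown because each holds the PU.1 motif, in capitals, once in the first and as a pair in the other.
Ltf -9.3 kb: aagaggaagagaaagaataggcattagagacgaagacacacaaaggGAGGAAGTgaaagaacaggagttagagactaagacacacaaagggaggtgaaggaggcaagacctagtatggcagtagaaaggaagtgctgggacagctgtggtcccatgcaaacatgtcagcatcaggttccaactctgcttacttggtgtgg
Ltf +27.1 kb: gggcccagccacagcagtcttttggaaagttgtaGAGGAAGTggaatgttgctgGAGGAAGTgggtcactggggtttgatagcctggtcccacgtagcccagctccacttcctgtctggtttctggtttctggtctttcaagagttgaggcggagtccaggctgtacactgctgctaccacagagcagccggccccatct
Regions without the motif fell too. Ltf +40.1 kb (chr9:111058977-111059703, intergenic) lay 1458 bp from the start site of the neighbouring gene Ccrl2 and 39685 bp from the nearest of Ltf. This region went from 4.83, 5.51 and 5.75 CPM in WT-LSK to 0.714, 1.34 and 0.812 in URE-LSK (-2.50 ± 0.30, edgeR adjusted p = 3.12e-06). S100a9 +2.0 kb, in an intron of S100a9, fell by 2.75 ± 0.41 on the log2 scale (edgeR adjusted p = 2.76e-05). Mmp9 -12.1 kb, which opened from LSK to GMP in WT mice, had 0.143, 0.223 and 0.278 CPM in URE-LSK (-2.12 ± 0.34, edgeR adjusted p = 6.28e-05).

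In GMPs, Camp, Ngp and S100a9 were more open with the deletion. URE-GMP differed from WT-GMP at 25 of the 57 regions, 17 higher and 8 lower (43.9%, against 39.7% of all regions). Across the table, 15.6% of regions were higher and 24.1% lower, and 13% of promoter regions were called, as were 3 of the 7 start regions. With loess offsets the split of the 57 was 21 higher and 6 lower. By gene, all 3 calls in the Camp window, all 5 in the S100a8 window and 3 of 4 in the Ngp and S100a9 windows were higher, while all 3 in the Ltf window were lower. Mmp8 had 1 higher and 2 lower, and Mmp9 had 3 higher and 1 lower.

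Camp start had 29.2, 30.3 and 26.3 CPM in URE-GMP against 5.35 to 10.5 in WT-GMP (log2 fold change 1.78 ± 0.24, edgeR adjusted p = 9.90e-06). Ngp start had 10.9, 13.1 and 9.98 CPM against 1.11 to 3.29 (2.32 ± 0.30, edgeR adjusted p = 9.25e-06), and S100a9 start had 16.8, 15.5 and 13.1 CPM against 0.715 to 3.76 (2.71 ± 0.38, edgeR adjusted p = 1.83e-05). At all 3 the lowest URE-GMP library was well above the highest WT-GMP library. Without WT-GMP replicate 3 the log2 fold changes were 1.55, 1.97 and 2.27. These groups also differed in the sum over GMP markers (320 to 343 CPM in URE-GMP and 205 to 250 in WT-GMP). Within that list, Prtn3 and Ms4a3 were lower in URE-GMP. The sums of these groups over mature neutrophil markers overlapped, but the members differed. Trem1 had a mean of 24.7 CPM in WT-GMP and 30.3 in URE-GMP. Mmp25 (log2 fold change -1.06) and a Cxcr2 region (-1.33) were called lower in URE-GMP, and no region of the list was called higher. The monocyte list (5 of 5 genes) summed to 70.5 to 86.4 CPM for URE-GMP and 89.9 to 105 for WT-GMP, and the T cell list (2 of 4 genes, without Cd3e and Cd3g) to 19.0 to 20.4 and 11.1 to 16.2. The part of these lists in the result was not tested.

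Camp -11.9 kb and Ngp -4.3 kb had larger fold changes than the start regions of the same genes. Camp -11.9 kb (chr9:109861339-109861702, intergenic) had 1.38, 1.11 and 0.438 CPM for WT-GMP, against 10.6, 9.19 and 6.47 for URE-GMP (3.21 ± 0.33, edgeR adjusted p = 8.81e-07). Ngp -4.3 kb (chr9:110415224-110415607, intergenic) had 0.502, 0.629 and 0.230 CPM for WT-GMP, against 7.34, 8.01 and 4.07 for URE-GMP, a 14.3-fold difference (3.83 ± 0.34, edgeR adjusted p = 2.38e-07). WT and URE libraries did not overlap at either region. Both were close to the limit of detection in WT-LSK, with 2 to 6 counts a library, and were called higher in URE-LSK as well, at 1.55 ± 0.56 for Camp -11.9 kb (edgeR adjusted p = 0.0267) and 1.89 ± 0.55 for Ngp -4.3 kb (edgeR adjusted p = 0.00813). The LSK call of Camp -11.9 kb was lost without URE-LSK replicate 3 (log2 fold change 1.25, edgeR adjusted p = 0.117) and without WT-LSK replicate 1, 2 or 3 (1.49, 1.40 and 1.64). The stretch in the middle of Ngp -4.3 kb (chr9:110415315-110415514, plus strand) is shown with its C/EBP motif in capitals.
Ngp -4.3 kb: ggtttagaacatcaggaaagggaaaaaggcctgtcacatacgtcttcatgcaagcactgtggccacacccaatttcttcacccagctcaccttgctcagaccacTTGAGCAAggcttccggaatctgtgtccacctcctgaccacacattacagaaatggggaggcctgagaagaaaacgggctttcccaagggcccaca

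Mmp8 and S100a8, which were lower in URE-LSK, were not called in GMPs. Mmp8 start had 13.8, 13.9 and 14.1 CPM in URE-GMP and 16.5 to 18.6 in WT-GMP, which did not pass (-0.32 ± 0.19, edgeR adjusted p = 0.144) and had the opposite sign with GC content offsets (0.09). S100a8 start had 24.1, 23.9 and 18.6 CPM in URE-GMP and 9.91 to 18.6 in WT-GMP (0.55 ± 0.23, edgeR adjusted p = 0.0517). The difference between the 2 genotype effects (interaction) was called at both, at 1.96 ± 0.31 for Mmp8 (edgeR adjusted p = 5.92e-04) and 2.03 ± 0.37 for S100a8 (edgeR adjusted p = 0.00169). In all, 9 of the 57 regions had a called interaction, 7 positive and 2 negative (15.8%, against 14.0% of all regions, 8.96% positive and 5.03% negative, and 4.95% of promoter regions).

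Other regions of the S100a8 window were called higher in URE-GMP. The 2 described next had their nearest start site at another gene, S100a7a. S100a8 -9.2 kb (chr3:90659540-90660007, intergenic) had 4.64, 3.21 and 1.73 CPM for WT-GMP, against 9.06, 11.7 and 9.74 for URE-GMP, without overlap (1.70 ± 0.27, edgeR adjusted p = 5.28e-05). In LSKs it lay between 0.342 and 0.614 CPM in both genotypes. S100a8 -8.5 kb (chr3:90660343-90660556, intergenic) had 0.795, 0.231 and 0.438 CPM for WT-GMP, against 2.17, 2.29 and 2.57 for URE-GMP (2.36 ± 0.37, edgeR adjusted p = 5.48e-05). It was also called higher in LSKs, where 0.315, 0.204 and 0.221 CPM stood against 1.19, 0.754 and 1.39 (2.15 ± 0.41, edgeR adjusted p = 3.37e-04), again without overlap. S100a9 -14.5 kb and Mmp8 +14.3 kb, the regions with the most counts in their windows, were not called in any comparison. The first had log2 changes of 0.39 ± 0.20 in LSKs and 0.45 ± 0.20 in GMPs, and the second had 0.37 ± 0.16 and 0.29 ± 0.16.

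Losses in GMPs included Ltf +40.1 kb, near the Ccrl2 start site, with 10.1, 7.20 and 7.08 CPM for WT-GMP, against 0.732, 1.58 and 0.800 for URE-GMP (-2.94 ± 0.29, edgeR adjusted p = 7.05e-07). Another was Mmp9 -12.1 kb, with 4.15 to 5.73 CPM for WT-GMP, against 0.624, 0.954 and 0.557 for URE-GMP (-2.80 ± 0.27, edgeR adjusted p = 5.50e-07). Mmp8 -4.7 kb (chr9:7553629-7553962, intergenic) fell from 4.56, 3.67 and 4.10 to 1.61, 1.67 and 2.20 CPM (-1.17 ± 0.24, edgeR adjusted p = 5.06e-04), and had -0.72 with GC content offsets, within the fold threshold. The start regions of Ltf (-0.13 ± 0.19) and Mmp9 (-0.07 ± 0.22) were not called, and the sign of the Mmp9 value changed without WT-GMP replicate 3 (0.26). Across both cell types, 8 of the 57 regions were called higher in UREd/d mice in LSKs and in GMPs alike (8.45% of all regions were), 6 were lower in both (18.7% of all) and none was called in opposite directions (0.16% of all).

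**Figure D4:**
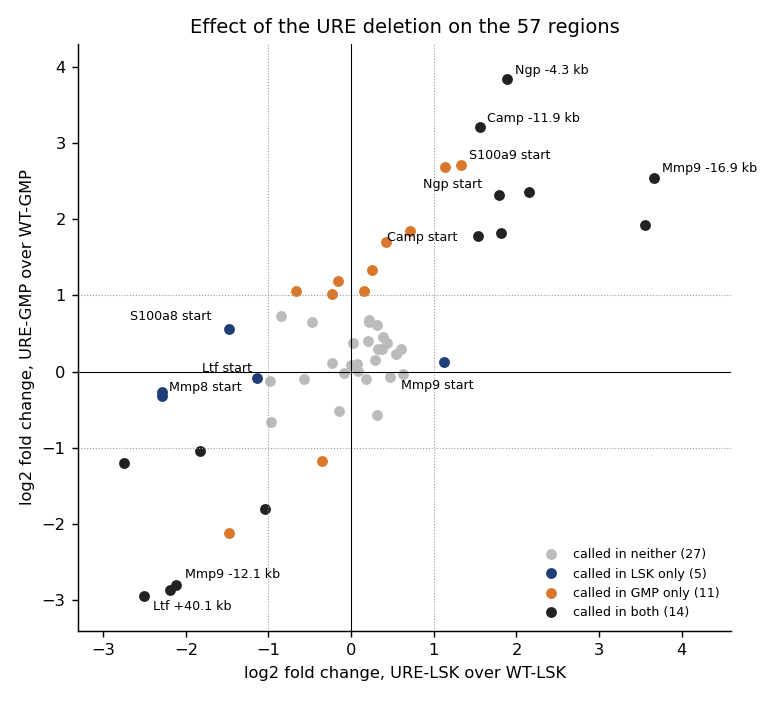
Log2 fold change of URE over WT in LSKs (horizontal axis) and in GMPs (vertical axis) for the 57 regions, coloured by the comparisons in which they were called, with dotted lines at the fold threshold. The upper right holds Camp, Ngp and Mmp9 -16.9 kb, the lower left Ltf +40.1 kb (nearest the Ccrl2 start site) and Mmp9 -12.1 kb, and 14 regions were called in both cell types.

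**Figure D5:**
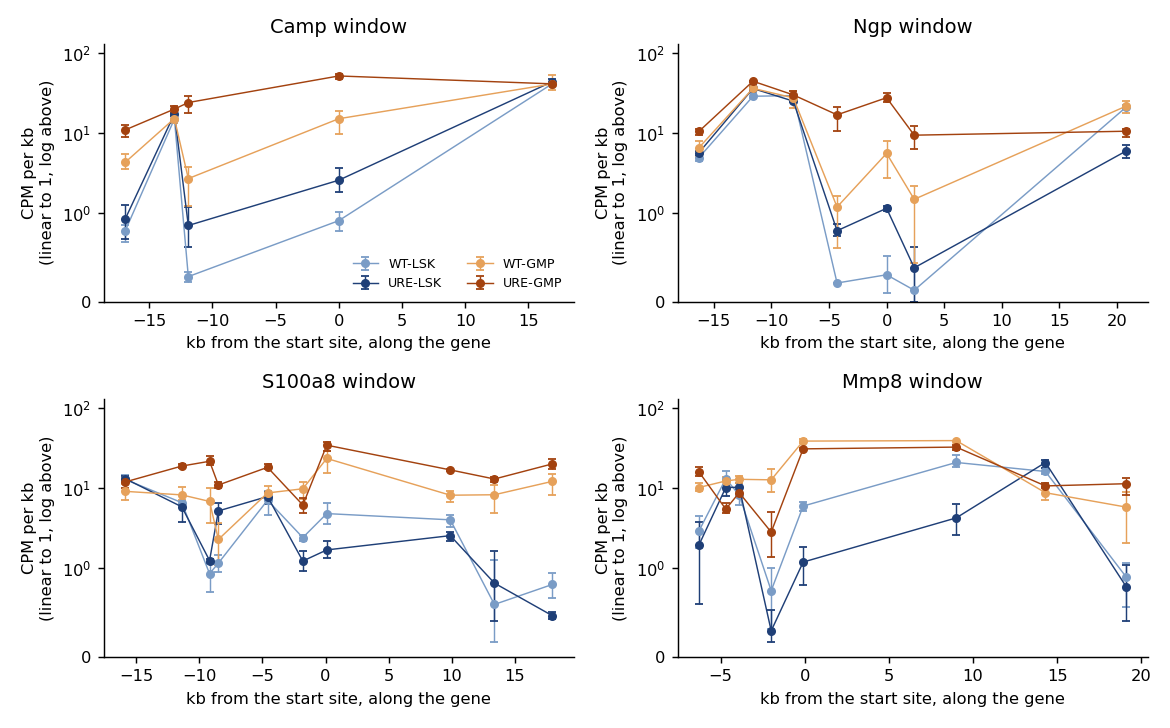
Mean CPM per kb (vertical axis, linear to 1 and log above) of each region in the windows of Camp, Ngp, S100a8 and Mmp8 by distance from the start site along the gene (horizontal axis, kb). Points are means of 3 libraries and bars run from the lowest to the highest library. The groups separate at the start sites of Camp and Ngp and lie close together at Camp +16.9 kb, the Nme6 promoter. At Ngp -11.6 kb, the Ptpn23 promoter, the genotypes did not overlap in LSKs or in GMPs, with log2 changes of 0.32 and 0.30, under the fold threshold.

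Window sums over the gene body and 20 kb on each side mixed these regions with others. Own start regions held 21.5% of the window's counts over all libraries at Camp and 5.7% at Ngp, whereas the Nme6 promoter held 62.6% and the Ptpn23 promoter 56.5%. None of the 7 windows was called between genotypes in LSKs or in GMPs by edgeR (6.09% and 7.91% of 18435 windows were) or by DESeq2. At an unadjusted p under 0.05, 5 windows passed in LSKs and 6 in GMPs, where 49.7% and 56.5% of all windows did. With windows extended by 5 kb in place of 20 kb, 3 were called in each, against 7.19% and 8.98% of 17437 such windows. The S100a8 and S100a9 windows were higher in GMPs than in LSKs, by 1.54 ± 0.15 and 1.25 ± 0.16 on the log2 scale in WT mice (6.71% of windows were called) and by 2.57 ± 0.16 and 1.99 ± 0.15 in UREd/d mice (11.8%). The difference between these steps was called for S100a8, at 1.03 ± 0.22 (edgeR adjusted p = 0.00386; 3.27% of windows), and not for S100a9, at 0.74 ± 0.22.

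A list of 16 other late granule and late neutrophil genes, 15 of them with a window, had the windows of Olfm4 and Retnlg lower and none higher in both genotype comparisons. The Olfm4 window (an olfactomedin of a subset of neutrophils) fell from 3.16 ± 0.798 CPM for WT-LSK (SD of 3 libraries) to 0.034 ± 0.0395 for URE-LSK, under the level of 3 counts, and from 0.672 ± 0.289 to 0.136 ± 0.0434 for the GMPs. The Retnlg window (a resistin-like protein of neutrophils) fell from 7.37 ± 0.0788 to 1.52 ± 0.185 CPM for LSKs and from 6.76 ± 0.715 to 1.61 ± 0.148 for GMPs (log2 fold changes -2.28 ± 0.15 and -2.07 ± 0.15, edgeR adjusted p = 6.20e-08 and 5.30e-08). From LSK to GMP, 1 window of the list was higher and 1 lower in WT mice, and 5 were higher in UREd/d mice. Of the 13 start regions on this list, 1 was higher and 3 lower in URE-LSK (11.5% of promoter regions were called), 3 were higher and 2 lower in URE-GMP (13%), 6 were higher and 1 lower in the WT step (13.5%) and 10 were higher in the UREd/d step (19.7%). The shares of all windows called are those given above for the member windows.

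None of the windows of 9 other S100 genes was called in any of the 5 comparisons by edgeR, and at an unadjusted p under 0.05, 5 of them passed in LSKs, 6 in GMPs, 6 in the WT step, 9 in the UREd/d step and 1 in the interaction, where 49.7%, 56.5%, 61.7%, 66.3% and 33.5% of all windows did. Of 6 other matrix metalloproteinase genes with a window, 1 was lower in URE-LSK, 1 higher and 2 lower in URE-GMP, 1 higher in the WT step and 2 higher in the UREd/d step, and 2 had a positive and 1 a negative interaction. In the same order, 6.09%, 7.91%, 6.71%, 11.8% and 3.27% of all windows were called. The S100 genes had 12 start regions, counted gene by gene (S100a1 and S100a13 share theirs). In URE-LSK 1 was higher (S100a3, log2 fold change 2.60) and 2 lower (S100a5, -2.06, and S100a6, -2.27). In URE-GMP 1 was higher and 3 lower, and in the UREd/d step 2 were higher and 2 lower. None was called in the WT step. Of 4 metalloproteinase start regions, 1 was higher in URE-LSK, and 1 was higher and 1 lower in URE-GMP. Shares of promoter regions called are given above.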

How the data were processed

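OmniATAC-seq libraries from 12 sorted samples were analysed, 3 in each of 4 groups given by the labels. The authors trimmed reads with cutadapt, aligned them to GRCm38 with Bowtie2, removed duplicates and non-primary chromosomes, called peaks per group with Genrich, merged them with bedtools and deposited raw counts per region from featureCounts. The sources used here give neither the unit counted (fragments or cut ends) nor a shift for the transposase. Since peaks were called on groups, a region open in 1 group only is measured in all.

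Starts in the table were read as 0-based and are given 1-based. The counts, 23072701 to 62204826 per library, were fitted with edgeR 4.0.16 (filterByExpr, which removed none of the 121336 regions, TMM scaling, quasi-likelihood test, two-sided, 1 coefficient per group, Benjamini-Hochberg over all regions). A call needed an adjusted p under 0.05 and an absolute log2 fold change over 1. The SE of a log2 fold change is its absolute value divided by the square root of the test's F statistic. Its spread was thus estimated from all 12 libraries and not from the compared groups alone. CPM values use TMM-scaled totals. Fold changes at regions with few counts depend on edgeR's prior count. The study used DESeq2, run here (1.42.0) as an alternative. Summed counts of 18435 protein-coding gene windows (gene body and 20 kb each side) were fitted in the same way. Regions up to 500 bp from any annotated start site were taken as promoter regions. The fit was tested on simulated counts with known changes. Figures were drawn with matplotlib 3.10.9.

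Named were, for each gene, the start region, the region with most counts and the called region with the smallest p in each comparison. Ltf -9.3 kb, Mmp9 +27.6 kb, S100a8 -11.4 kb and S100a9 -6.7 kb fall outside this rule and were named after their values were seen. The members and lists were chosen with earlier results of these data known. Lcn2 was not analysed here. Deviations of same-numbered libraries had r = 0.223 to 0.264 in the WT step and 0.112 to 0.319 in the UREd/d step. Libraries of other numbers had lower values there (-0.176 to -0.044 and -0.259 to 0.098). Same-numbered libraries had 0.117 to 0.422 in the GMP comparison and -0.109 to 0.15 in the LSK comparison. These ranges overlapped those of other numbers (-0.346 to 0.18 and -0.204 to 0.138). The labels do not say what a number marks. Shares called over all regions or windows are given beside the members' counts.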

Additional observations from a re-analysis of the deposited data

Results flagged for a closer look

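Genotype effects differed between LSKs and GMPs at 9 of the 57 regions and in 1 gene window, by edgeR's interaction test (adjusted p under 0.05, absolute log2 value over 1). Each value is the log2 fold change of URE over WT in GMPs minus that in LSKs. At start regions it was 2.03 for S100a8 and 1.96 for Mmp8, both lower in URE-LSK and not called in GMPs. Mmp8 +9.0 kb, in a coding exon of Mmp8, had 2.02, with 10.3, 14.0 and 10.2 CPM in WT-LSK against 1.43, 2.12 and 3.42 in URE-LSK, while GMP libraries of both genotypes lay between 16.4 and 21.6 CPM.

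Around S100a8, the values were 1.35 at S100a8 -11.4 kb (in a coding exon of S100a7a), 1.72 at S100a8 +9.9 kb and 1.59 at S100a8 +18.0 kb, and the S100a8 gene window had 1.03. Of these, S100a8 -11.4 kb and S100a8 +9.9 kb were called higher in URE-GMP, at 1.19 and 1.06, the second not without WT-GMP replicate 3 (0.94), and S100a8 +18.0 kb passed the fold threshold in neither cell type.

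At Mmp9, the region 5.1 kb upstream had 1.06, with a fall in LSKs of 19.5, 17.5 and 21.5 to 7.78, 9.24 and 9.51 CPM and a log2 change of -0.08 in GMPs. Mmp9 -16.9 kb had -1.13 and Mmp9 +27.6 kb had -1.62, both higher with the deletion in each cell type and more so in LSKs. The call at Mmp9 -16.9 kb was lost without WT-LSK replicate 1 or 2, URE-LSK replicate 1 or 3, WT-GMP replicate 3 or URE-GMP replicate 1 or 2 (-1.15 to -0.63). That at Mmp9 +27.6 kb was lost without WT-LSK replicate 1 or 3, URE-LSK replicate 1 or WT-GMP replicate 2 or 3 (-1.59 to -1.36), and that at Mmp9 -5.1 kb without URE-LSK replicate 1, WT-GMP replicate 1 or URE-GMP replicate 2 (0.96 to 0.98).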

How the results depend on the processing

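Calls of the 57 regions in the order LSK genotype, GMP genotype, WT step, UREd/d step and interaction were 19, 25, 24, 29 and 9. Leaving out 1 library at a time gave 17 to 22, 21 to 25, 22 to 25, 28 to 30 and 6 to 11, and for windows 0, 0, 2, 2 and 0 to 1. The S100a8 window interaction was lost without WT-LSK replicate 2 or 3, URE-LSK replicate 1 or 2 or WT-GMP replicate 3. Within 5 kb of gene bodies (28 regions) the counts were 10, 11, 14, 16 and 4, and windows of 5 kb gave 3, 3, 4, 4 and 2 (7.19%, 8.98%, 8.02%, 13.5% and 3.94% of all). Without a fold threshold 4, 6, 7, 7 and 5 windows passed. Many windows do so: at an unadjusted p under 0.05, 49.7%, 56.5%, 61.7%, 66.3% and 33.5% of all windows passed. A mean of at least 2 CPM left 13 calls in GMPs, 12 in the WT step and 18 in the UREd/d step, since fewer regions were tested. Of the 78097 regions tested then, 21981, 22258 and 31306 were called. At an adjusted p under 0.01, 5 interactions remained. Testing against the fold threshold (glmTreat) left 3 interactions and 10 calls in LSKs, where 3703 and 31424 of all 121336 regions were called. It left 1 window in the WT step and 0 window interactions. GC content offsets called 1 window in GMPs. DESeq2 gave 19, 24, 24, 29 and 11 regions.

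Scaling moved the split of calls. With GC offsets the members were 12 higher and 8 lower in LSKs and 21 and 5 in GMPs, the share of all called regions that was lower went from 63.8% to 48.0% and from 60.6% to 47.1%, and the median of all regions moved from 0.14 to 0.28 and from 0.06 to 0.21. Loess offsets put that share at 46.1% in LSKs and 43.8% in GMPs. Signs turned at Mmp9 start in GMPs (0.00 with RLE factors and with DESeq2, and -0.30 to 0.26 over left-out libraries, 0.26 without WT-GMP replicate 3 and 0.15 without URE-GMP replicate 2) and at Mmp8 start in GMPs (0.09 with GC offsets). The cause was not tested. Of 100 single values, 67 kept their direction and side of the threshold in every setting. With the replicate block the counts were 19, 25, 24, 29 and 12. Regions with 1 to 8 counts in WT-LSK limit the fold changes of Ngp and Camp -11.9 kb.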

Other observations

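By Pearson's r of log2 CPM over the 12 libraries, the 2 gene windows most like that of each member (windows that share a region with a member left out) were Gm11011 (0.993) and Vamp1 (0.991) for Ltf, Dgkh and Ccno (both 0.984) for Camp, and Mtch1 (0.992) and Fam45a (0.982) for Ngp. For Mmp8 they were Ifitm3 (0.996) and Gm45261 (0.99), and for Mmp9 Lyzl6 and Rprml (both 0.986). For S100a8 they were Dcpp1 and Dcpp2 (both 0.997), and for S100a9 Defb37 (0.998) and Defb40 (0.996). The libraries fall into 4 groups of 3, so these values are a description with no test.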
